A study of Mus musculus with 6 samples.

Results

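Wnt ligands, their Frizzled and Lrp receptors, the R-spondins, the secreted Sfrp and Dkk antagonists, and the intracellular genes Axin1, Axin2 and Lef1 were followed in RNA sequencing of isolated mouse glomeruli, the filtering units of the kidney. Members were chosen by gene symbol and by a count filter: 46 protein-coding genes matched, and the 31 with at least 10 raw counts in 3 or more of the 6 libraries were kept, out of 17156 genes of any kind that pass the same filter and 54838 listed. Samples came from mice aged 3 weeks, with 3 libraries labelled CTRL (157, 162 and 163), of genotype wild type, and 3 labelled KO (146, 147 and 148), of genotype bPIX -/-. Per the series' design text the deletion was specific to podocytes, the epithelial cells that wrap the glomerular capillaries. The promoter that drove the deletion, the strain and the isolation procedure are not stated in the sources used here, and bPIX, encoded by Arhgef7, is an exchange factor that activates the small GTPases Rac1 and Cdc42. Each deposited file carries in its name the opposite group, and another animal number, from the sample it belongs to. Libraries are named here by the group and number in the sample titles. Groups were set by the sample labels, so every direction below would turn round, at the same size, if the names of the files were the correct ones.

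Wnt proteins are secreted, lipid-modified signals that bind Frizzled receptors together with the co-receptors Lrp5 or Lrp6. In the canonical branch this halts the Axin scaffold's complex that destroys beta-catenin, which then joins Lef1 and its Tcf relatives on target genes, Axin2 among them. Sfrp proteins bind the Wnt ligands themselves, Dkk1, Dkk2 and Dkk4 act on Lrp5 and Lrp6, and R-spondins raise the amount of receptor at the cell surface. In the kidney the pathway is known for its part in nephron formation, in which Wnt9b and Wnt4 act in turn, and for podocyte injury when it is overactive.

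Libraries held 39841396 to 51917945 gene counts, with the most in KO 146. KO 146 also stood apart with 11.94% mitochondrial counts, against 16.54% to 19.25% in the other libraries. Records aligned to more than 1 place were 22.51% in KO 146, against 27.06% to 29.63% in the others. Levels are given as CPM, counts per 1000000 after TMM scaling of library sizes, and, where different genes are compared, as CPM per kilobase (kb) of annotated exon. The targeted gene Arhgef7 was counted 3582 to 3956 times in the libraries labelled CTRL, against 7837, 3712 and 3903 times in KO 146, 147 and 148, at overlapping CPM, so it did not settle the labels. Markers of glomerular cells were present but those of tubules were far more abundant: in the libraries labelled CTRL the mean of 14 podocyte markers was 15.2 to 18.6 CPM per kb, and that of 14 proximal tubule markers 1552 to 1656 CPM per kb. All 14 podocyte, 12 glomerular endothelial and 12 mesangial and smooth muscle markers were higher in every library labelled KO than in any labelled CTRL. The summed podocyte markers stood at 1109 to 1340 CPM in the libraries labelled CTRL, against 9400, 3956 and 2602 CPM in KO 146, 147 and 148. The mesangial and smooth muscle sum was 264 to 276 CPM against 1748, 669 and 471 CPM, and the endothelial sum 732 to 860 CPM against 4933, 2193 and 1477 CPM. The proximal tubule sum was 27936 to 29497 CPM against 12763, 19173 and 22196 CPM, and the sum for the loop, distal tubule and collecting duct 6661 to 8401 CPM against 4355 to 7675 CPM. Fewer or more cells of a type cannot be told apart from less or more RNA per cell in such bulk samples. Interstitial fibroblast markers summed to 58.2 to 72.6 CPM against 127 to 258 CPM, and leukocyte markers to 59.8 to 68.2 CPM against 55.5 to 81.9 CPM. Of the 6 fibroblast markers tested, 5 had a positive log2 fold change. In all libraries labelled KO, 3 were above every library labelled CTRL and 1 was below. Parietal epithelial markers were mixed: their sum was 457 to 475 CPM against 499 to 515 CPM, but 2 of 8 had a positive log2 fold change, the median was -0.24, and 3 were below every library labelled CTRL in all those labelled KO. No marker of any of these 8 lists was at 0 in any library. The part of these marker differences in the Wnt values below was not tested, beyond 1 fit that carried the proximal tubule markers as a covariate.

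The family did not move as a block between the groups. Sfrp2, Dkk2, Fzd2 and Rspo3 had the highest log2 fold changes, labelled KO minus labelled CTRL, at 2.47, 1.70, 1.96 and 1.81, Sfrp5 had the lowest at -1.99, and 6 of 8 Frizzled receptors and 5 of 11 ligands had an absolute value under 0.3. Of the 31 members, all entered the test and 0 passed it (edgeR quasi-likelihood test, adjusted p below 0.05 over all genes), where 1.01% of the 17086 genes tested were called. At an unadjusted p below 0.05 there were 7 members higher and 3 lower, against 29.3% of all genes in either direction. The 3 libraries labelled KO lay above the 3 labelled CTRL for 8 members and below them for 3, against 21.9% and 19.6% of all genes, or 41.5% in both directions together. The median log2 fold change was 0.03 over the members and -0.01 over all genes tested, with 19 of 31 members positive against 49.3% of all genes. In size, 13 members had an absolute log2 fold change under 0.3 and 5 one of at least 1.

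Calls in the family depended on single libraries and on the tool. Without KO 146, edgeR called Sfrp2, Dkk2 and Fzd2 higher and Sfrp5, Fzd5 and Fzd7 lower, with 17.2% of all genes called. Without KO 148, it called Sfrp2, Dkk2, Fzd2, Lrp5 and Lef1 higher and Sfrp5 and Fzd5 lower, with 18.3% of all genes called. DESeq2 on all 6 libraries called Sfrp2, Dkk2, Fzd2 and Rspo3 higher and Sfrp5 and Fzd5 lower, with 16.4% of all genes called. In each of these 3 fits the members' count, 6, 7 and 6 of 31, was within a few genes of that background share.

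**Figure D1:**
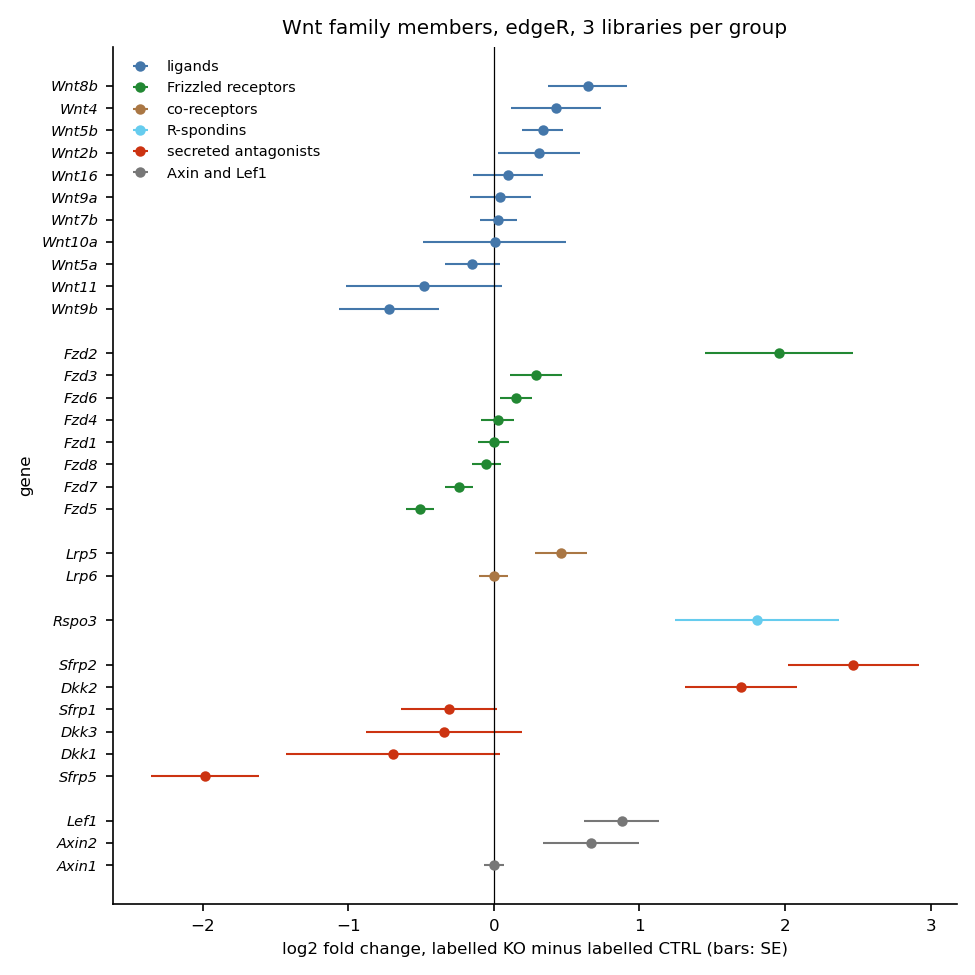
Log2 fold change of each of the 31 members, labelled KO minus labelled CTRL (points, horizontal axis), with its standard error (bars), grouped by role on the vertical axis. The secreted antagonists span the widest range, from Sfrp5 at -1.99 to Sfrp2 at 2.47, while 6 of 8 Frizzled receptors and 5 of 11 ligands lie within 0.3 of 0.

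The stretches before the transcription start of 5 members are printed here because these are the 4 members with the smallest p and Axin2, the widely used readout of the canonical branch. RefSeq's table for build GRCm38.p6 held 18 of the 31 members, and the 250 bases before the first listed start were read. Sfrp2 lies at chr3:83766071-83766320, plus strand, Dkk2 at chr3:132085042-132085291, plus strand, Sfrp5 at chr19:42202253-42202502, minus strand, Fzd5 at chr1:64737751-64738000, minus strand and Axin2 at chr11:108920099-108920348, plus strand. Capitals mark the core letters bound by Tcf and Lef1 proteins, CTTTGA or CTTTGT, searched on both strands.
Sfrp2: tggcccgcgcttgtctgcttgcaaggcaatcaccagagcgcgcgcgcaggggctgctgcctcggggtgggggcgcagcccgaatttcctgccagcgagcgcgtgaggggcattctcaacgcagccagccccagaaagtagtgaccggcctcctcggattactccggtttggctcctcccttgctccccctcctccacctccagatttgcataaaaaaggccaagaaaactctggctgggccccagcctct
Dkk2: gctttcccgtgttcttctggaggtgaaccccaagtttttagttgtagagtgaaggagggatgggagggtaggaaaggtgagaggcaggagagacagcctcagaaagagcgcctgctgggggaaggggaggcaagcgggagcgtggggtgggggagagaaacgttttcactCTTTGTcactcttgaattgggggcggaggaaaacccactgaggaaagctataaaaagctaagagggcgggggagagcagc
Sfrp5: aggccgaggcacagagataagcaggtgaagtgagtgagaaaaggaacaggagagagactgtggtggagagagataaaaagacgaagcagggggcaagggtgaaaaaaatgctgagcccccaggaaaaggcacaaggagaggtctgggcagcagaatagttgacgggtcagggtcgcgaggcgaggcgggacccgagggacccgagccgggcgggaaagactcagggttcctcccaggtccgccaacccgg
Fzd5: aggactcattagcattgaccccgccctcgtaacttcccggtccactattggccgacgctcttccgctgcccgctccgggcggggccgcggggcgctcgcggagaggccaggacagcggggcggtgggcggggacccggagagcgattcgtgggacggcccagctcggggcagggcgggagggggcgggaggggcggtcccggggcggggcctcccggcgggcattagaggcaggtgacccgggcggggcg
Axin2: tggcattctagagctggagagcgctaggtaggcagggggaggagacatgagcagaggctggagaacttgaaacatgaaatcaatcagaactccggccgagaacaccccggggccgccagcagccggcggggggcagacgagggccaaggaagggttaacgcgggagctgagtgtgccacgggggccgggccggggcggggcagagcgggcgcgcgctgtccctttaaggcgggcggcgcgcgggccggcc

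Of these 5 windows, the one of Dkk2 alone held such a core, beginning 80 bases before the start. Among the 18 members found, 6 had a core in the window (Dkk1, Dkk2, Fzd1, Fzd7, Wnt11 and Wnt8b), against 27.7% of the 27025 genes with a listed promoter. For Fzd1, Fzd7 and Lef1 the bases after the listed start were not found in an annotated transcript of the gene. The placing of their windows is therefore uncertain. The Fzd5 window held 76.4% G or C and 9 matches to GGGCGG on either strand, the letters of the GC box, while the Sfrp2 window held 63.6% G or C and 0 such matches. GGGCGG was present in 13 of the 18 member windows and in 32.9% of all windows. These matches describe the letters only, and where none was found nothing follows about the factor.

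Secreted antagonists were the most abundant role per kilobase and showed the greatest differences in both directions. Of 6 kept members, 2 were positive and 4 negative, the median log2 fold change was -0.33, and none passed the edgeR test. Sfrp2 (chromosome 3, 83766321 to 83774316, plus strand, GRCm38) encodes a secreted protein whose cysteine-rich domain resembles that of Frizzled receptors. Its level was 41.0, 43.4 and 40.2 CPM in CTRL 157, 162 and 163, against 401, 175 and 113 CPM in KO 146, 147 and 148. The groups did not overlap, and the libraries labelled KO spread over a wide range with KO 146 far above the other two. The means were 41.5 ± 1.62 and 230 ± 151 CPM (SD, n = 3 each), with a log2 fold change of 2.47 (SE 0.45, edgeR adjusted p = 0.0649, range over the alternative settings 1.22e-07 to 0.264). Without KO 146 the log2 fold change was 1.79.

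Dkk2 (chromosome 3, 132085292 to 132180304, plus strand) encodes a ligand of Lrp5 and Lrp6 that blocks canonical signalling in most settings. It was at 36.1, 42.3 and 46.2 CPM in the libraries labelled CTRL, against 224, 101 and 79.0 CPM in KO 146, 147 and 148. As for Sfrp2, every library labelled KO was above every one labelled CTRL, in the order 146, 147, 148. The log2 fold change was 1.70 (SE 0.39, edgeR adjusted p = 0.0755), and 1.11 without KO 146.

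Sfrp1 (chromosome 8, 23411502 to 23449632, plus strand), a close relative of Sfrp2, had 278, 226 and 279 CPM in CTRL 157, 162 and 163, against 111, 229 and 293 CPM in KO 146, 147 and 148. Here the groups overlapped, and KO 146 was the lowest of the 6 libraries. Its log2 fold change was -0.31 (SE 0.33, edgeR adjusted p = 0.562), and -0.0092 without KO 146. Sfrp1 was the leading antagonist in all 3 libraries labelled CTRL, with 60.8% to 67.6% of the antagonists' summed CPM per kb. In KO 146, 147 and 148 its share was 9.28%, 32.2% and 47.0%, while that of Sfrp2 was 67.8%, 50.2% and 37.0%, against 18.9% to 23.6% in the libraries labelled CTRL. The ratio of Sfrp2 to Sfrp1 per kb, which does not depend on how libraries are scaled, was 0.293 to 0.389 in the libraries labelled CTRL, against 7.31, 1.56 and 0.787 in KO 146, 147 and 148.

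Sfrp5 (chromosome 19, 42197971 to 42202252, minus strand), another Frizzled-related antagonist, was scarce and had the lowest log2 fold change of the family. It had 38, 33 and 23 counts in CTRL 157, 162 and 163, against 7, 9 and 11 counts in KO 146, 147 and 148. Every library labelled KO was below every one labelled CTRL, and KO 146 was lowest. The means were 0.756 ± 0.205 and 0.193 ± 0.065 CPM (SD, n = 3 each), with a log2 fold change of -1.99 (SE 0.37, edgeR adjusted p = 0.0662). Since 3 libraries labelled CTRL and 1 labelled KO reached 10 counts, Sfrp5 was kept mainly through the group in which it was higher.

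Dkk3, a divergent Dkk protein, and Dkk1, the classical Lrp6 blocker, had values of -0.34 and -0.69 on the log2 scale with wide errors (SE 0.54 and 0.73). Dkk3 was counted 535 times in CTRL 163 against 145 and 160 in CTRL 157 and 162, so that 1 library labelled CTRL stood apart from the other two. Without CTRL 163 its log2 fold change was 0.44. Dkk1 had 3 to 22 counts in the libraries labelled CTRL, against 5 to 14 in those labelled KO, and reached 10 counts in 2 and 1 of them. For Dkk1 the log2 fold change was -0.030 without CTRL 157, -0.30 without KO 146, -1.18 without CTRL 163 and -1.27 without KO 148.

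**Figure D2:**
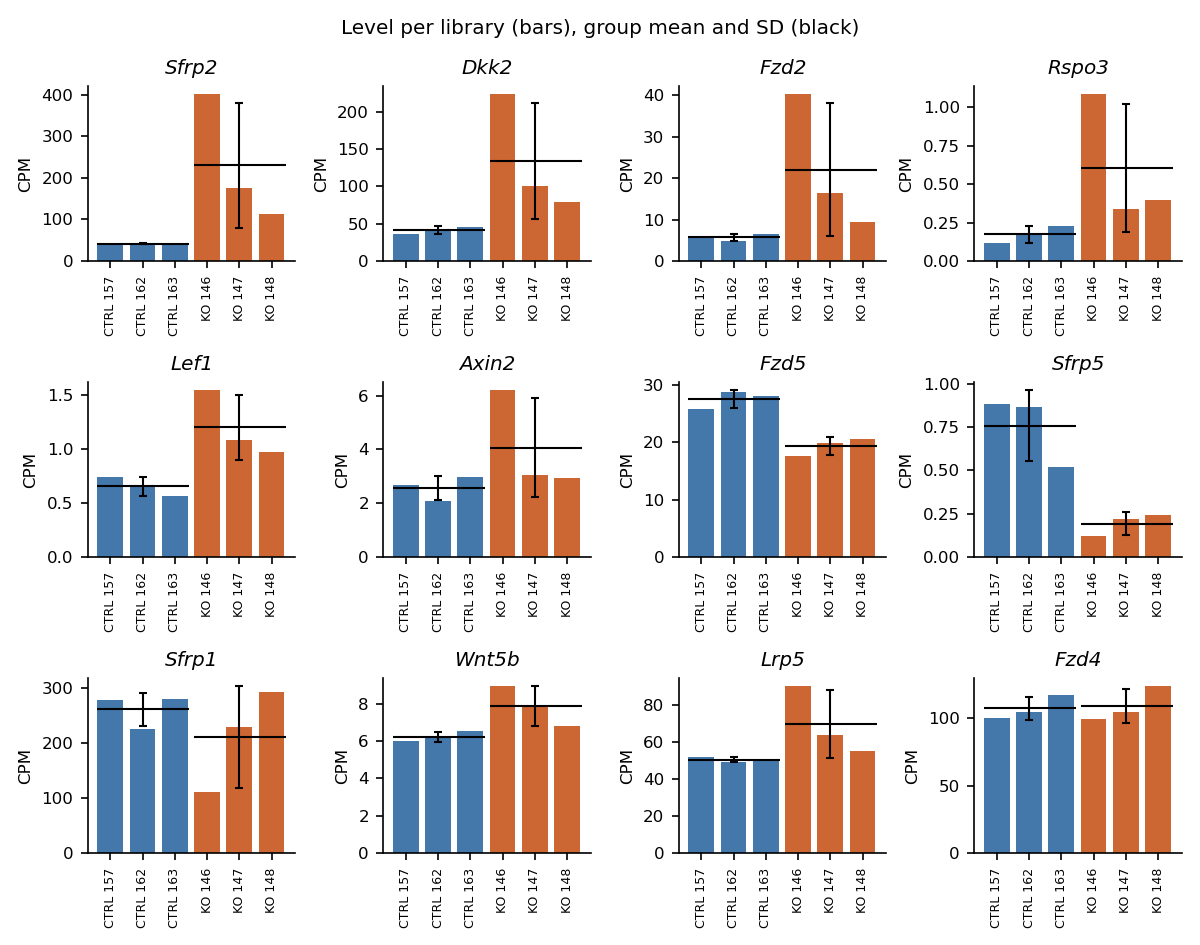
Level in CPM (vertical axis, from 0, with its own scale in each panel) of 12 members in each of the 6 libraries, with CTRL in blue and KO in orange. Black lines give the group mean and SD. Sfrp2, Dkk2 and Fzd2 are tallest in KO 146, whereas Sfrp1 is lowest there and Fzd4 is level across the groups.

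Among the Frizzled receptors, the 7-pass membrane receptors for Wnt, Fzd4 and Fzd1 were the most abundant per kilobase and nearly level between the groups. Of 8 kept members, 4 had positive and 4 negative log2 fold changes, the median was 0.01, and none passed the edgeR test. Fzd4 (chromosome 7, 89404355 to 89413134, plus strand), which also serves as the receptor for norrin in blood vessels, was at 100.1, 105 and 117 CPM in CTRL 157, 162 and 163, against 99.4, 104 and 124 CPM in KO 146, 147 and 148. The groups overlapped fully, and the log2 fold change was 0.03 (SE 0.11, edgeR adjusted p = 0.898). Fzd1 had a log2 fold change of -0.001 (SE 0.10) at 60.8 CPM in both groups.

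Fzd2 (chromosome 11, 102604396 to 102608058, plus strand), a receptor used by Wnt5a among others, differed most among the receptors. It stood at 5.79, 4.86 and 6.42 CPM in CTRL 157, 162 and 163, against 40.3, 16.5 and 9.46 CPM in KO 146, 147 and 148. The groups were separate, and the libraries labelled KO again ran 146, 147, 148. Its log2 fold change was 1.96 (SE 0.51, edgeR adjusted p = 0.0794), and 1.18 without KO 146. Its share of the Frizzled receptors' summed CPM per kb was 2.56% to 3.43% in the libraries labelled CTRL, against 19.3%, 8.61% and 4.88% in KO 146, 147 and 148.

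Fzd5 and Fzd7 were lower in each library labelled KO than in any labelled CTRL. Fzd5 (chromosome 1, 64730558 to 64737751, minus strand) was at 25.8, 28.7 and 28.0 CPM in CTRL 157, 162 and 163, against 17.6, 19.8 and 20.5 CPM in KO 146, 147 and 148. The groups did not overlap and each was tight, with means of 27.5 ± 1.54 and 19.3 ± 1.52 CPM (SD, n = 3 each). The log2 fold change of Fzd5 was -0.51 (SE 0.09, edgeR adjusted p = 0.0662), and -0.56 to -0.45 over the fits that leave out 1 library. Without a count filter edgeR called Fzd5 and Sfrp5 lower, with 2.72% of all genes called. Fzd7 (chromosome 1, 59482424 to 59486955, plus strand) had 30.0, 30.2 and 29.1 CPM against 27.9, 22.8 and 24.9 CPM, also without overlap but by a smaller margin. Its log2 fold change was -0.24 (SE 0.10, edgeR adjusted p = 0.154).

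Fzd3, Fzd6 and Fzd8 had log2 fold changes of 0.29, 0.15 and -0.05, with overlapping groups. Fzd3 and Fzd6 are known for planar cell polarity. The summed CPM per kb of the 8 receptors was 50.4 to 51.7 in the libraries labelled CTRL, against 52.4 to 56.8 in those labelled KO, so the total differed far less than the share of Fzd2.

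**Figure D3:**
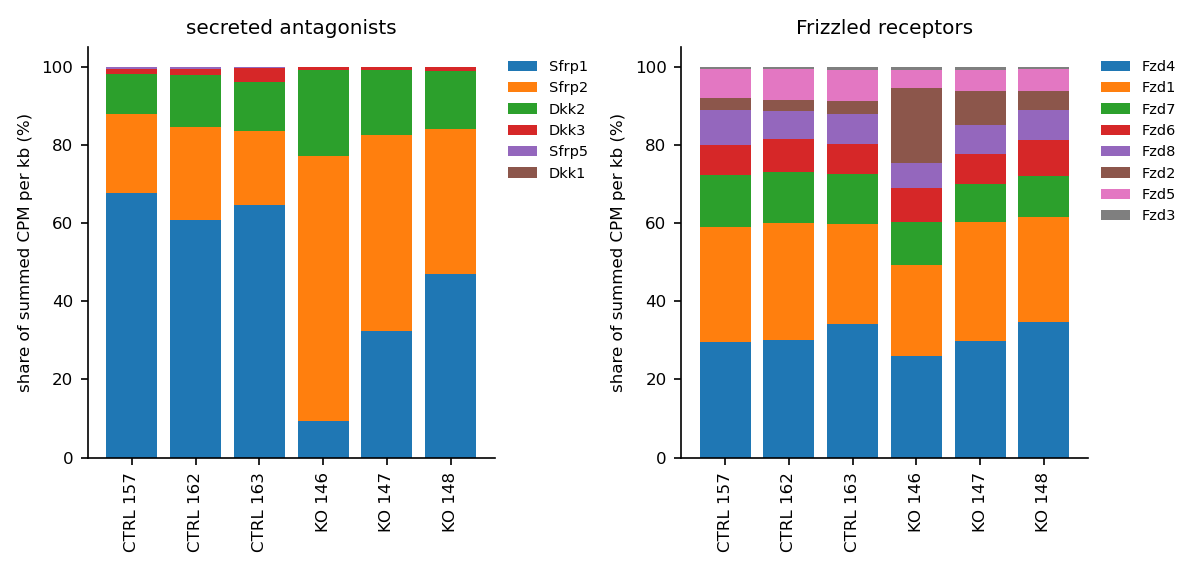
Share of each member in the summed CPM per kb of its role (vertical axis, percent), in each library, for the secreted antagonists (left) and the Frizzled receptors (right). Sfrp1 holds 60.8% to 67.6% in the CTRL libraries and 9.28% in KO 146, where Sfrp2 holds 67.8%; among the receptors the band of Fzd2 is the one that widens, to 19.3% in KO 146.

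The co-receptors Lrp5 and Lrp6, single-pass receptors that pair with Frizzled in the canonical branch, behaved differently from each other. Lrp5 (chromosome 19, 3584828 to 3686564, minus strand) was at 52.1, 49.5 and 50.4 CPM in CTRL 157, 162 and 163, against 90.4, 63.7 and 55.1 CPM in KO 146, 147 and 148. Its groups did not overlap, though KO 148 was only slightly above CTRL 157. The log2 fold change of Lrp5 was 0.46 (SE 0.18, edgeR adjusted p = 0.148), and 0.22 without KO 146. Lrp6 (chromosome 6, 134446476 to 134566965, minus strand) was the more abundant of the pair per kb, with 131, 151 and 138 CPM against 153, 132 and 135 CPM. The groups overlapped and the log2 fold change was -0.001 (SE 0.10, edgeR adjusted p = 0.995).

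Of the 4 R-spondins, secreted partners of Lgr receptors, Rspo3 alone was kept. Rspo3 (chromosome 10, 29452416 to 29535867, minus strand) had 5, 7 and 10 counts in CTRL 157, 162 and 163, against 64, 14 and 18 counts in KO 146, 147 and 148. The libraries labelled KO were all above those labelled CTRL, and most of the difference came from KO 146. The log2 fold change was 1.81 (SE 0.57, edgeR adjusted p = 0.101), and 1.05 without KO 146. With 1 library labelled CTRL and 3 labelled KO at 10 counts or more, it was kept mainly through the group in which it was higher.

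The Wnt ligands were low in every library and their sum was level. Their summed CPM per kb was 7.99 to 9.35 in the libraries labelled CTRL, against 8.61 to 9.36 in those labelled KO, below that of the Frizzled receptors. Of 11 kept ligands, 8 had positive and 3 negative log2 fold changes with a median of 0.04, none passed the edgeR test, and 2 had groups that did not overlap, against 41.5% of all genes. Wnt5b, Wnt7b and Wnt5a, of which the Wnt5 proteins mostly act without beta-catenin, were the most abundant per kb over the mean of all 6 libraries. In the libraries labelled CTRL alone, Wnt9b (1.17 CPM per kb) was above Wnt5a (1.12 CPM per kb).

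Wnt5b (chromosome 6, 119432531 to 119544347, minus strand) had 6.02, 6.17 and 6.53 CPM in CTRL 157, 162 and 163, against 8.95, 7.87 and 6.80 CPM in KO 146, 147 and 148. The groups were separate by a narrow margin at KO 148, with a log2 fold change of 0.34 (SE 0.14, edgeR adjusted p = 0.169). Wnt8b (chromosome 19, 44493472 to 44514273, plus strand) was counted 17, 11 and 18 times against 41, 19 and 25 times, also separate in CPM. Its log2 fold change was 0.64 (SE 0.27, edgeR adjusted p = 0.173). Wnt5a and Wnt7b had log2 fold changes of -0.15 and 0.03 with overlapping groups.

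Wnt9b and Wnt4, the pair that acts in turn in nephron formation, had values of opposite sign. Wnt9b (chromosome 11, 103727364 to 103749821, minus strand), made by the ureteric bud and its derivatives, was at 7.51, 5.09 and 3.25 CPM in CTRL 157, 162 and 163, against 2.27, 3.81 and 3.57 CPM in KO 146, 147 and 148. The libraries labelled CTRL themselves ranged over more than the difference between the groups, which overlapped. Its value was -0.72 on the log2 scale (SE 0.34, edgeR adjusted p = 0.214), and -0.38 without CTRL 157. Wnt4 was at 2.25, 2.97 and 2.40 CPM against 4.88, 3.16 and 2.16 CPM, where KO 146 was high and KO 148 the lowest of all. Its log2 fold change was 0.43 (SE 0.31), and 0.06 without KO 146.

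Wnt11 was counted 181 times in CTRL 162 against 83 and 45 times in CTRL 157 and 163, and its log2 fold change of -0.48 became 0.31 without CTRL 162. The remaining ligands Wnt2b, Wnt16, Wnt9a and Wnt10a had log2 fold changes of 0.31, 0.10, 0.04 and 0.01, all with overlapping groups.

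Axin2 and Lef1, which many cells raise when the canonical branch is active, had positive values that did not pass the test. Axin2 (chromosome 11, 108920349 to 108950783, plus strand) was at 2.67, 2.07 and 2.96 CPM in CTRL 157, 162 and 163, against 6.20, 3.07 and 2.95 CPM in KO 146, 147 and 148. KO 146 stood apart, while KO 148 lay within the range of the libraries labelled CTRL. For Axin2 the log2 fold change was 0.67 (SE 0.33, edgeR adjusted p = 0.229), and 0.22 without KO 146. Lef1 (chromosome 3, 131110471 to 131224356, plus strand) was scarce, at 32, 25 and 25 counts against 91, 45 and 44 counts, with every library labelled KO above those labelled CTRL in CPM. Its log2 fold change was 0.88 (SE 0.26, edgeR adjusted p = 0.0895). Axin1 (chromosome 17, 26138688 to 26195811, plus strand), the constitutive scaffold, was at 44.0, 43.4 and 46.0 CPM against 44.7, 45.1 and 43.7 CPM, with a log2 fold change of 0.002 (SE 0.07, edgeR adjusted p = 0.990).

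Several members ran in the same order over the libraries as the summed podocyte, endothelial and mesangial markers. Sfrp2, Dkk2, Fzd2, Lrp5, Lef1 and Wnt5b, 6 of 31 members, were highest in KO 146, then KO 147, then KO 148, with all libraries labelled CTRL below, a pattern held by 15.5% of all genes tested. Set against the summed mesangial and smooth muscle markers, Dkk2 gave 135 to 167 CPM per 1000 marker CPM with the label CTRL and 128 to 168 in those labelled KO. Fzd2 gave 18.4 to 23.2 and 20.1 to 24.7, and Rspo3 0.436 to 0.818 and 0.505 to 0.841, so for these 3 genes the groups overlapped once set against these markers. Per 1000 podocyte marker CPM, however, Fzd2 gave 4.38 to 4.79 with the label CTRL and 3.64 to 4.28 with the label KO, lower and without overlap, while Dkk2 (29.8 to 38.1 and 23.8 to 30.3) and Rspo3 (0.096 to 0.169 and 0.085 to 0.152) overlapped. Over the mesangial and smooth muscle markers Sfrp2 gave 146 to 164 and 229 to 262, with no overlap, and 30.0 to 39.1 against 42.6 to 44.4 per 1000 podocyte marker CPM.

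Axin2 and Lrp5 were instead lower against the mesangial and smooth muscle markers in every library labelled KO. So were Wnt4, Wnt9b, Fzd5, Sfrp1 and Sfrp5, and any gene that rises less than the marker sum falls in this ratio. Per 1000 mesangial and smooth muscle marker CPM, Axin2 gave 7.87 to 10.7 with the label CTRL and 3.55 to 6.26 with the label KO. Lrp5 gave 183 to 195 and 51.7 to 117. Lef1 gave 2.05 to 2.79 and 0.882 to 2.06, which overlapped by a narrow margin. Per 1000 podocyte marker CPM Lef1 was lower without overlap, at 0.422 to 0.615 and 0.164 to 0.372. Over the proximal tubule markers Axin2, Lrp5 and Lef1 were all higher without overlap. There Axin2 gave 0.074 to 0.100 and 0.133 to 0.486, and Lrp5 1.71 to 1.77 and 2.48 to 7.08. Lef1 gave 0.019 to 0.025 and 0.044 to 0.121. For Fzd5, set against the proximal tubule markers, the values were 0.874 to 1.03 with the label CTRL and 0.925 to 1.38 in those labelled KO, which overlapped. Sfrp5 remained lower against the same tubule markers, at 0.018 to 0.031 and 0.009 to 0.011. These ratios are descriptions with no test. In the edgeR fit with the proximal tubule marker mean as a covariate, Sfrp2 (log2 fold change 0.63) and Sfrp1 (0.89) were called higher, with 1.26% of all genes called. In the same fit Dkk2 stood at 0.13, Fzd2 at -0.14, Rspo3 at 0.039, Lef1 at 0.25 and Sfrp5 at -1.05. That covariate is partly confounded with the group, since it was lower in every library labelled KO than in any labelled CTRL. Its mean log2 CPM was 9.79 to 9.89 with the label CTRL, against 8.75, 9.26 and 9.48 in KO 146, 147 and 148. It therefore also carries the spread among the libraries labelled KO.

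**Figure D4:**
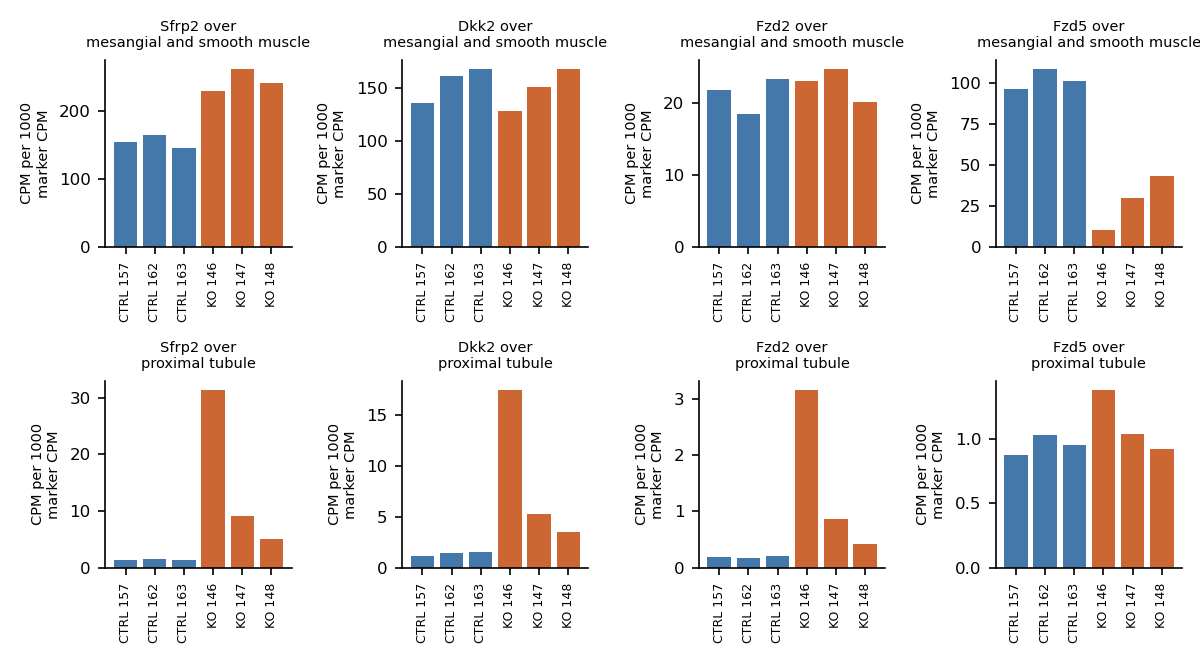
Sfrp2, Dkk2, Fzd2 and Fzd5 in each library as CPM per 1000 CPM of summed marker genes (vertical axis, from 0, with its own scale in each panel), over mesangial and smooth muscle markers (top row) and proximal tubule markers (bottom row), with CTRL in blue and KO in orange. Dkk2 and Fzd2 overlap between the groups in the top row while Sfrp2 does not, and Fzd5 overlaps in the bottom row.

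The 15 genes of the rule that did not reach the count filter were Wnt1, Wnt2, Wnt3, Wnt3a, Wnt6, Wnt7a, Wnt8a, Wnt10b, Fzd9, Fzd10, Rspo1, Rspo2, Rspo4, Dkk4 and Sfrp4. Their highest count in any library was 21, in Sfrp4, which had 12, 4 and 21 counts in CTRL 157, 162 and 163, against 6, 2 and 8 in KO 146, 147 and 148. Rspo1, a partner of Lgr receptors, had 0, 0 and 2 counts against 9, 11 and 9 counts. Each of the other 13 had at most 9 counts in any library, and Rspo4 had 0 in all 6. The 3 libraries labelled KO were above the 3 labelled CTRL for Rspo1, while Sfrp4 overlapped. None of the 15 entered the test, and no fold is given.

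Of the 71 other genes of the pathway, 67 were tested, 0 were called higher and 1 lower by edgeR, a share near the 1.01% of all genes called. At an unadjusted edgeR p below 0.05 there were 24 higher and 7 lower, against 29.3% of all genes in either direction. All libraries labelled KO lay above those labelled CTRL for 29 and below for 9, against 21.9% and 19.6% of all genes. In both directions together the share of all genes was 41.5%. The log2 fold change was positive for 44 of the 67, against 49.3% of all genes. The gene called was Notum, a secreted enzyme that inactivates Wnt by removing its lipid and that is itself a target of the canonical branch. Notum (chromosome 11, 120653788 to 120661175, minus strand) was at 19.3, 17.8 and 18.6 CPM in CTRL 157, 162 and 163, against 7.66, 10.6 and 10.5 CPM in KO 146, 147 and 148. The groups were far apart and each was tight, with a log2 fold change of -0.95 (SE 0.15, edgeR adjusted p = 0.0459, range over the alternative settings 6.06e-06 to 0.239). The call of Notum was lost without CTRL 157, CTRL 162, CTRL 163 or KO 147 (adjusted p = 0.239, 0.194, 0.205 and 0.139, edgeR). Its log2 fold change in these fits was -0.93, -0.99, -0.96 and -1.03. Of all genes, edgeR called 2 without CTRL 157 and 3 without CTRL 162. The call was also lost with the proximal tubule covariate (-0.50, edgeR adjusted p = 0.150).

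Other antagonists had 8 of 13 tested genes positive and 5 negative, with a median log2 fold change of 0.65 and none called. Shisa3, which holds back Frizzled maturation, had a log2 fold change of 2.88 (SE 0.50, edgeR adjusted p = 0.0594), and Wif1, a secreted Wnt-binding inhibitor, one of 2.26 (SE 0.44, adjusted p = 0.0704). Other receptors and planar polarity genes had 9 of 13 positive and none called, led by Ptk7 at 1.56 and Prickle2 at 1.54. The nuclear factors had 9 of 11 positive and none called, with Pygo1, a beta-catenin cofactor, at 1.55 and Tle3, a corepressor, at -0.38. The cytoplasmic relay had 13 of 20 positive and none called, led by Daam2 at 2.25 and Csnk1e at 1.08. Target genes other than members had 9 of 14 positive and Notum called, with Apcdd1 at 1.54. This target list shares Notum, Apcdd1, Nkd1, Rnf43, Znrf3, Tcf7 and Lgr5 with the other lists, so these tallies are not independent. In the total of 67 tested each gene is counted once. Of the genes for ligand secretion and modification, 3 of 3 were negative, with Wls, the carrier of Wnt to the cell surface, at -0.13. The medians of the receptor, nuclear, relay, target and secretion lists were 0.32, 0.36, 0.12, 0.19 and -0.13. Shisa3, Wif1, Ptk7, Prickle2, Pygo1, Daam2, Csnk1e and Apcdd1 all ran KO 146, KO 147, KO 148, then every library labelled CTRL. The summed podocyte markers had this order too, while Tle3, Wls and Notum did not. The genes named here were picked for their small p, a choice that favours separate groups. Their number is therefore not comparable with the 15.5% of all genes tested that held this order. Shisa3 was at 126, 52.7 and 34.4 CPM in KO 146, 147 and 148, against 8.16 to 12.3 CPM in the libraries labelled CTRL.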

How the data were processed

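RNA was measured in glomeruli of 6 mice, 3 libraries per group. The labels do not say how far animals were otherwise independent, so p values set the group difference against the spread between these samples only. The authors deposited unnormalised read counts for each gene. DESeq2, HTSeq 0.11.1, STAR 2.6.0 and fastp 0.19.5 are named in the submitters' processing notes, with no role stated. Those notes list a human build although the identifiers are mouse. Annotation, strand setting and multi-mapping rule are not stated in the sources used here. The 5 closing lines of each file, 28.55% to 35.14% of records, name no gene and were left out.

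Symbols, places and exon lengths came from GENCODE M21 on GRCm38, which named 54809 of 54838 identifiers. Without strand, reads of Sfrp2, Lef1, Rspo3, Fzd5 and 5 other members cannot be told from those of genes overlapping on the other strand, which had at most 18 counts. Tests used edgeR 4.0.16 in R 4.3.3 (TMM, filterByExpr with a minimum count of 10, robust quasi-likelihood F test on all 6 libraries, Benjamini-Hochberg adjustment over all genes, called below 0.05). The SE is the absolute log2 fold change over the square root of F. DESeq2 1.42.0 and limma 3.58.1 served as alternatives, and all were tested on simulated data. Pairs of libraries in a group differed by 16.7 or more in chi-square per degree of freedom, so none was a copy. KO 146 differed from KO 147 and KO 148 by 175.7 and 298.6, against 27.09 between KO 147 and KO 148.

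Members and lists were chosen with earlier results of these data known. Full values are given for the 12 members of smallest p, the most abundant of each role, Axin2, Lef1 and any called member. Of the other pathway lists, the called genes and the 2 of smallest p in each are named. Sfrp1, Dkk3, Dkk1, Wnt4, Wnt11, Sfrp4 and Rspo1 were given in more detail after their values were seen.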

Additional observations from a re-analysis of the deposited data

How the results depend on the processing

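All 14 alternatives were run. Of the 31 members, 9 kept the sign of their log2 fold change in every one: Sfrp2, Dkk2, Rspo3, Lef1, Wnt8b and Fzd6 positive, Sfrp5, Fzd5 and Fzd7 negative. A kept sign was not a kept size: with the proximal tubule covariate Dkk2 was 0.13, Rspo3 0.039, Lef1 0.25, Sfrp2 0.63 and Sfrp5 -1.05, against 1.70, 1.81, 0.88, 2.47 and -1.99. The count of all genes called was 173, against 2871 with DESeq2, 960 without a count filter and 2 to 3211 with 1 library left out. Members called were 0, against 6 with DESeq2, 2 without a count filter, 2 with the proximal tubule covariate and 0 to 7 with 1 library left out. Other pathway genes called were 1, against 19, 3, 0 and 0 to 22 in the same order. The cause of these shifts was not tested.

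With library totals as the scale, the median over all genes went from -0.0062 to 0.13, and Fzd1 (0.13), Fzd8 (0.085) and Lrp6 (0.14) turned positive. With RLE size factors Fzd1 was 0.0021 and Lrp6 0.0033, with DESeq2 Axin1 was -0.0046, and with limma-voom Wnt10a was -0.18. With the proximal tubule covariate 15 members turned: Axin1 -0.020, Axin2 -0.44, Fzd2 -0.14, Fzd3 -0.16, Lrp5 -0.21, Wnt16 -0.058, Wnt2b -0.21, Wnt4 -0.70 and Wnt5b -0.016, and Dkk1 1.05, Fzd1 0.14, Fzd8 0.10, Sfrp1 0.89, Wnt5a 0.40 and Wnt9b 0.032. With 1 library left out, ranges that crossed 0 were -0.020 to 0.024 for Axin1, -0.77 to 0.44 for Dkk3, -0.081 to 0.054 for Fzd1, -0.077 to 0.088 for Fzd4, -0.10 to 0.024 for Fzd8, -0.075 to 0.050 for Lrp6, -0.32 to 0.41 for Wnt10a, -0.87 to 0.31 for Wnt11, -0.071 to 0.28 for Wnt16, -0.29 to 0.016 for Wnt5a, -0.028 to 0.11 for Wnt7b and -0.069 to 0.18 for Wnt9a. No paired analysis was possible because the groups share no replicate numbers.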
